A study of Mus musculus with 2 samples.

Results

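The cells described here are the Plvap-positive endothelial cells of the mouse choroid plexus, the secretory tissue of the brain ventricles. A barcode, which stands for a droplet and usually for 1 cell, was kept when it held at least 500 genes, at most 25% mitochondrial transcripts and less than 10% transcripts of transthyretin (Ttr), the main product of the choroid plexus epithelium. It was taken as endothelial when 7 endothelial genes (Pecam1, Cdh5, Kdr, Flt1, Emcn, Egfl7 and Esam) summed to 8 or more UMIs and 8 mural cell genes to fewer than 8. A UMI, a unique molecular identifier, stands for 1 captured transcript. Members were the endothelial barcodes with at least 1 UMI of Plvap. They numbered 932 of 19584 deposited barcodes and 932 of 1033 endothelial barcodes.

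The study profiled the choroid plexus of female C57BL/6 mice aged 3 and 24 months by droplet-based 10x Genomics 3′ single-cell RNA sequencing. After perfusion, plexus tissue was taken from the lateral and 4th ventricles. For each age, tissue of 4 mice was pooled, digested with enzymes and made into 1 library, which gives 2 libraries in all. The mice carried no transgene or treatment that the labels name. With 1 library per age there is no replicate check and nothing was tested, and age, the mice pooled, digestion and library cannot be told apart.

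Capillaries of the choroid plexus are fenestrated: their walls have pores closed by thin diaphragms, which let solutes of the blood reach the stroma, while the barrier is formed by the epithelium. PLVAP is the protein from which fenestral and stomatal diaphragms are built, and signalling by VEGF-A from the epithelium through KDR (VEGFR2) keeps such vessels fenestrated. Most other brain capillaries lack Plvap and carry tight junctions and transporters of the blood-brain barrier. Endothelial cells also present antigen on MHC class I molecules, and some can present on MHC class II.

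The 3 month library held 9154 barcodes and 111403078 UMIs, and the 24 month library 10430 barcodes and 116777113 UMIs. Members numbered 516 at 3 months and 416 at 24 months. They were shallow: their median depth was 2167.5 UMIs (813 to 8778) at 3 months and 2137 UMIs (766 to 7955) at 24 months, against 17689 and 15257 in epithelial barcodes. Summed over members, the libraries gave 1225951 and 1048245 UMIs, so that 3 counts, the level a count of 0 allows, correspond to 2.45 and 2.86 CPM, the count scaled to a sum of 1000000 UMIs. Of 29 barcode sequences found in both libraries, 0 were members in both. Below, values are given with 3 months first, and brackets hold 95% intervals that cover counting error only.

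Members made up the same share of endothelial barcodes at both ages, 90.2% (87.5 to 92.5) and 90.2% (87.2 to 92.8). Because this share needs a Plvap transcript to be caught, it was taken again after thinning each endothelial barcode to 1000 UMIs, where it was 83.8% and 82.3%. Among all barcodes under the Ttr limit, members were 18.9% (17.4 to 20.4) at 3 months and 13.5% (12.3 to 14.7) at 24 months, a ratio of 0.713 (0.625 to 0.813). Among all kept barcodes they were 5.89% and 4.13%, a ratio of 0.701. Shares of barcodes depend on how well each cell type survives digestion, which was not measured. Near the limits of the rule, 46 and 39 endothelial barcodes held exactly 1 Plvap UMI, and 56 and 45 held 0. Plvap-bearing barcodes with 8 or 9 endothelial UMIs, just inside the limit, numbered 11 and 8, and those with 6 or 7, just outside, numbered 14 and 7.

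The markers fixed for this cell type were present in members. Plvap itself was used by the rule and is given only as a description: 2762 CPM at 3 months and 2699 CPM at 24 months, with a median of 6 UMIs per member at both ages. Flt1 (VEGFR1), which binds VEGF-A and limits its supply, was at 6557 and 6842 CPM, and Kdr, the main signalling receptor, at 2238 and 2271 CPM; both also entered the rule. Igfbp3, a binding protein of insulin-like growth factors that the rule did not use, was at 2590 and 2754 CPM. At 1000 UMIs per barcode, 76.5% and 76.7% of members held an Igfbp3 UMI, against 0.282% of fibroblast barcodes and 0.266% of epithelial barcodes at 3 months. Igfbp3 was not confined to members. Endothelial barcodes without a Plvap UMI held it in 17.3% (8.23 to 30.3) at 3 months and 36.1% (20.8 to 53.8) at 24 months. Some defining genes of blood-brain barrier endothelium were at low levels. The lipid transporter Mfsd2a had 0 and 1 UMI, the tight junction claudin Cldn5 17 and 19 UMIs, and the glucose transporter Slc2a1 57.1 and 54.4 CPM. The efflux transporter Abcb1a was at 83.2 and 103 CPM, and the whole list of 33 barrier genes, 18 of which had 50 UMIs or more, summed to 7308 and 7553 CPM.

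In members, most measured genes of fenestrae and of VEGF receptors and partners were at similar levels in both libraries. A gene was counted as higher or lower at 24 months when its CPM ratio was at least 1.5 in either direction and the interval of the ratio excluded 1, a rule of size and not a test. Of 5330 genes with at least 50 UMIs in members, 140 passed as higher (2.63%) and 203 as lower (3.81%), and the median log2 ratio of all 5330 was -0.04. Of 13 measured genes of fenestral diaphragms and caveolae, 0 passed in either direction, with a median log2 ratio of 0.02. Cav1, the coat protein of caveolae, was at 242 and 243 CPM, a ratio of 1.00 (0.846 to 1.19), and its coat partner Cavin1 at 303 and 288 CPM. Cav2 was at 131 and 92.5 CPM, and its ratio of 0.709 (0.545 to 0.918) lay under the size the rule asks for.

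None of 11 measured VEGF ligands, receptors and partners passed, and their median log2 ratio was also 0.02. This list includes the rule genes Flt1 and Kdr. The co-receptor Nrp1 was at 1965 and 1948 CPM, and Nrp2 at 275 and 276 CPM. Flt4 (VEGFR3) was at 191 and 235 CPM, a ratio of 1.23 (1.02 to 1.48). Vegfa in members was at 56.3 and 68.7 CPM, a ratio of 1.22 (0.865 to 1.72). In epithelial barcodes Vegfa was at 56.0 and 71.4 CPM, a ratio of 1.27 (1.23 to 1.32). In fibroblast barcodes it was at 241 and 329 CPM, a ratio of 1.37 (1.26 to 1.48). Ptprb, the endothelial phosphatase VE-PTP, was at 1921 and 1601 CPM in members, a ratio of 0.833 (0.782 to 0.888). Of 14 measured genes typical of fenestrated beds, 0 passed. Plpp3 and Plpp1, which dephosphorylate lipid mediators, had ratios of 0.989 and 0.994, and the sialomucin Emcn, also a rule gene, 1.06. Of 18 measured junction genes, 0 passed; Cdh5 (VE-cadherin), another rule gene, was at 809 and 764 CPM.

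**Figure D1:**
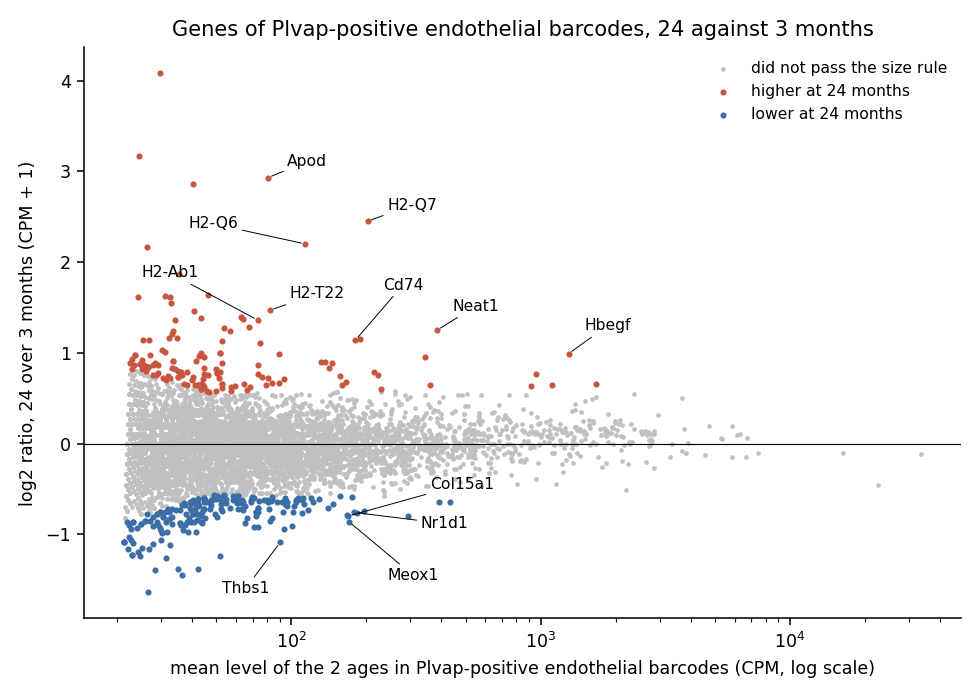
Mean level over both ages (x axis, CPM, log scale) and log2 ratio of 24 over 3 months on the CPM + 1 scale (y axis) of the 5330 genes measured in Plvap-positive endothelial barcodes; each point is a gene, red for the 140 that passed as higher and blue for the 203 that passed as lower. H2-Q7, H2-Q6, Neat1 and Hbegf lie above the main cloud at levels of over 100 CPM, while Meox1, Col15a1 and Nr1d1 lie below it; the high points at low levels are genes with few UMIs.

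The split between directions moved with the scaling. With library factors from the trimmed mean of M-values (TMM), 175 genes passed as higher and 150 as lower, although the factors shifted log2 ratios by only 0.04. Shifts this small cannot reverse a gene that passed the size rule, so its direction under the 3 other scalings was fixed in advance. Ratios close to 1 can change side. The plot of ratio against level shows where the genes that passed lie.

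Apart from Apod, most of whose UMIs lay in 1 barcode, the highest ratios among genes that reached 100 CPM were those of non-classical MHC class I genes. H2-Q6 and H2-Q7 are neighbouring Qa-2 genes of the MHC on chromosome 17 (GRCm38, H2-Q6 at chr17:35424850-35430055 and H2-Q7 at chr17:35439155-35443773, both on the plus strand). The H2-Q7 count was 76 UMIs and then 359 UMIs. This corresponds to 62.0 and 342 CPM and to a 5.52-fold higher level (4.30 to 7.17). For H2-Q6 the count was 49 and 196 UMIs, or 40.0 and 187 CPM, which is 4.68-fold higher (3.41 to 6.54). Reads of such near-identical paralogs can be divided between them in counting, so the split between both genes is uncertain and their sum is used below.

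Their promoters show how alike both copies are. They are printed 5′ to 3′ from RefSeq (GRCm38.p6), from 250 bases before to 50 bases after the annotated start, because both genes moved together. The capitals mark a match to the NF-kB consensus GGGATTCCC.
H2-Q6 (chr17:35424600-35424899, plus strand): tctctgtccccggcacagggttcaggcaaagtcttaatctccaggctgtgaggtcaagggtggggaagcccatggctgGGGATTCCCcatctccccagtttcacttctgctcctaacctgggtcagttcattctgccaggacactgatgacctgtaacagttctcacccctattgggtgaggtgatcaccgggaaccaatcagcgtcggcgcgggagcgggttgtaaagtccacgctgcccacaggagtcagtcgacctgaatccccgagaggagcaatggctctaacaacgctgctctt
H2-Q7 (chr17:35438905-35439204, plus strand): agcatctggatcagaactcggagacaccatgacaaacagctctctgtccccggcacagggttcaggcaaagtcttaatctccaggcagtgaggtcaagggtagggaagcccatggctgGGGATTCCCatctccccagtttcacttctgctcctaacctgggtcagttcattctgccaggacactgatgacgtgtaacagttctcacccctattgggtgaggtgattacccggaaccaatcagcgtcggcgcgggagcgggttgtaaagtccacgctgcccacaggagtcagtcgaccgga
The match begins 172 bases before the start in H2-Q6 and 132 bases before it in H2-Q7, and the longest run of bases that both windows share is 67 bases. On either strand, this motif was in 0.414% of 27025 RefSeq promoters of the same length, in 0.567% of 4235 promoters of genes measured in members, and in 4 of 17 promoters of the MHC class I and peptide loading list. A match describes letters, not binding.

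The H2-Q6 and H2-Q7 transcripts were spread over many members rather than held by a few. Their joint count was 125 UMIs in the younger library and 555 UMIs in the older one. Scaled to depth, 102 and 529 CPM, the sum was 5.19-fold higher (4.27 to 6.36). They were found in 86 of 516 members and in 248 of 416, and the highest single barcode held 4 of the 125 and 12 of the 555 UMIs. At 1000 UMIs per barcode, 8.41% (6.16 to 11.2) of members at 3 months and 37.4% (32.6 to 42.3) at 24 months held at least 1. Without thinning, H2-Q7 alone was in 11.4% and 50.2% of members.

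The same sum was also higher at 24 months in other cells. Endothelial barcodes without a Plvap UMI had 8 and 27 UMIs, 37.1 and 288 CPM, a ratio of 7.76 (3.43 to 19.8). This ratio includes a difference in make-up of that group between the libraries. There 6 of the 7 endothelial rule genes also passed as higher, with a median log2 ratio of 1.53. At 1000 UMIs, 5.77% (1.21 to 15.9) and 19.4% (8.19 to 36.0) of them held at least 1. Levels were far lower elsewhere. The sum was at 9.41 and 29.7 CPM in fibroblast barcodes, a ratio of 3.16 (2.22 to 4.59), and at 0.362 and 1.36 CPM in epithelial barcodes, a ratio of 3.75 (2.59 to 5.57). At 1000 UMIs, 0.753% and 2.69% of fibroblast barcodes and 0.0499% and 0.186% of epithelial barcodes held one of these transcripts. Epithelial barcodes were thinned from far greater depths than members, so these shares are no measure of free RNA in members, whose part was not tested.

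Other class I genes differed less. H2-T22, a further non-classical gene, had 53 and 127 UMIs, a ratio of 2.80 (2.02 to 3.94), and was found in 3.13% and 12.6% of members at 1000 UMIs. In fibroblast barcodes its ratio was 0.924 (0.718 to 1.19). B2m, the light chain of all class I molecules, was at 1919 and 2803 CPM, a ratio of 1.46 (1.38 to 1.54), just under the size rule. The classical heavy chains H2-K1 and H2-D1 had ratios of 1.40 and 1.19, and H2-T23 1.43 (1.22 to 1.67). Of the 18 measured members of the class I and peptide loading list, 3 passed as higher, against 2.63% of all genes, and 0 as lower. The list's median log2 ratio was 0.16. The peptide transporters Tap1 and Tap2 had ratios of 1.12 and 0.851, and the immunoproteasome subunits Psmb8 and Psmb9 1.11 and 1.12. The 3 genes that passed were thus heavy chains, while no measured gene of peptide supply did.

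**Figure D2:**
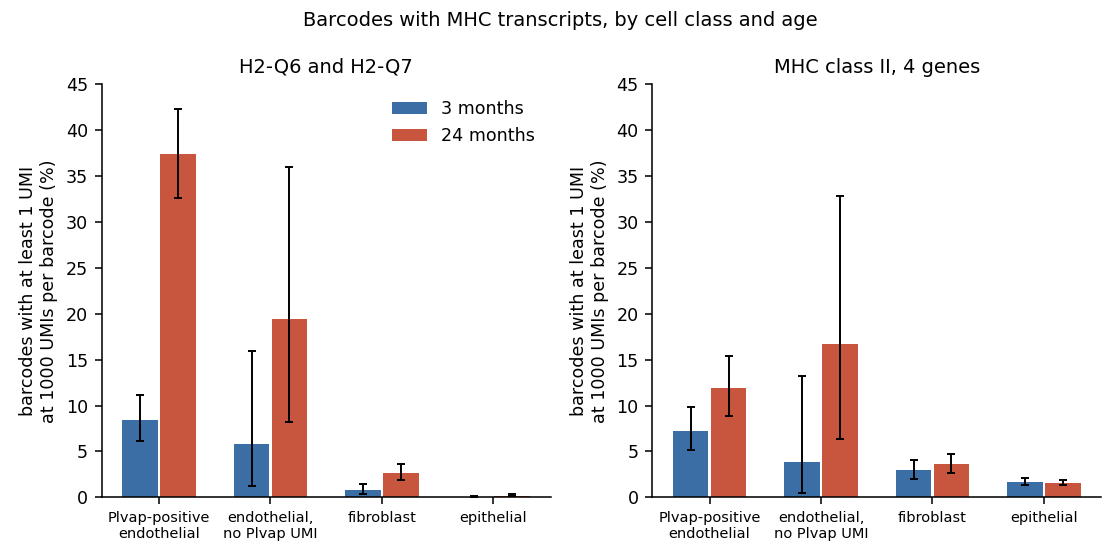
Share of barcodes with at least 1 UMI (y axis, percent) after thinning to 1000 UMIs, for H2-Q6 with H2-Q7 (left) and for 4 MHC class II genes (right), in 4 cell classes at 3 months (blue) and 24 months (red); bars are shares and lines exact 95% intervals for counting error only. For H2-Q6 with H2-Q7 the members went from 8.41% to 37.4%, and fibroblast and epithelial barcodes stayed under 3%.

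MHC class II transcripts were also higher at 24 months, but most lay in few barcodes. All 4 measured genes of the list passed as higher, with a median log2 ratio of 1.36: H2-Ab1 (ratio 2.60), H2-Aa (2.67) and H2-Eb1 (2.64), which encode chains of the class II molecules, and Cd74, the invariant chain (2.21). Summed, the 4 genes had 273 and 565 UMIs, 223 and 539 CPM, a ratio of 2.42 (2.09 to 2.81). They were found in 69 of 516 members and in 83 of 416. The 5% of members with most of them held 82.8% and 85.0% of these UMIs. At 1000 UMIs, 7.24% (5.15 to 9.84) and 11.9% (8.89 to 15.4) of members held 1 or more, and these intervals overlap.

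Some of the highest barcodes also carried transcripts of immune cells. At 24 months the highest held 183 class II UMIs with 105 UMIs of macrophage markers, and the next held 95 with 31 UMIs of B cell markers. At 3 months the highest held 67 and 41, with 30 and 18 macrophage UMIs. At 24 months a barcode with 22 class II UMIs had 25 endothelial and 8 Plvap UMIs and none of macrophages, B cells or T cells. Leaving out 22 and 23 members with at least 3 UMIs of an immune, fibroblast or smooth muscle list, Apoe not counted, brought the sum to 114 and 209 UMIs and the ratio to 2.20 (1.74 to 2.79). Leaving out barcodes with high doublet scores, 6 and 5 members, brought the median log2 ratio of the 4 genes from 1.36 to 0.72. The part of doublets in the remaining difference was not tested. In fibroblast barcodes the sum was at 55.8 and 119 CPM, a ratio of 2.14 (1.84 to 2.50). B cell markers in fibroblast barcodes summed to 1.38 and 1034 CPM, and their part in this ratio was not tested.

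Promoters of the class II genes with an entry in RefSeq, H2-Aa and H2-Eb1, are printed because all 4 genes moved together. The capitals mark CTGATTGG, the Y box core bound by NF-Y in class II promoters.
H2-Aa (chr17:34287774-34288073, minus strand): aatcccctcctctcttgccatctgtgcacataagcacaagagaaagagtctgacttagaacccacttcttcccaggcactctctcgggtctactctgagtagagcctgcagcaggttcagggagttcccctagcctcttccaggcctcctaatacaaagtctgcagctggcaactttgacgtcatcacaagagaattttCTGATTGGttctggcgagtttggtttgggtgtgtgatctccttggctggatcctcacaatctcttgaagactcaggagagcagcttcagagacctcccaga
H2-Eb1 (chr17:34305617-34305916, plus strand): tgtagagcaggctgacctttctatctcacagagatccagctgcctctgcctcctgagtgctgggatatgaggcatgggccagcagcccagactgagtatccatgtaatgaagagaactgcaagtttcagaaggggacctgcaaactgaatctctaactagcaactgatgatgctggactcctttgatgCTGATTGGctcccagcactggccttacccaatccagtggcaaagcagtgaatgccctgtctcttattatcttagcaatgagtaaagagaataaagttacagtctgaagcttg
The match begins 51 bases before the start in H2-Aa and 62 bases before it in H2-Eb1. On either strand, the motif was in 4.7% of all 27025 promoters and in 6.23% of the 4235 promoters of genes measured in members. It was also in 7 of 17 promoters of the class I list. The longest run shared by both windows was 8 bases.

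The type I interferon response was not generally higher in members. Of 32 measured genes of that list, 1 passed as higher and 0 as lower, with a median log2 ratio of 0.10. The gene that passed was Ifit1, which binds foreign RNA: it had 27 and 74 UMIs, a ratio of 3.21 (2.04 to 5.18). The ubiquitin-like Isg15 was at 139 and 180 CPM, a ratio of 1.30 (1.05 to 1.61), the virus entry inhibitor Ifitm3 had a ratio of 1.19, and the tetherin gene Bst2 a ratio of 0.990 (0.851 to 1.15). The same list gave 37 of 41 genes higher in epithelial barcodes, with a median log2 ratio of 1.16, where 4.91% of all genes passed as higher. In fibroblast barcodes 12 of 42 passed as higher, with a median of 0.28, where 3.97% of all genes did. Deeper classes pass the interval more easily, so the medians are the fairer comparison. The difference between classes was not tested. The motif GAAANNGAA, the core of interferon response elements, was in 16 of 26 promoters of this list and in 9.76% of all promoters.

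Genes that VEGF signalling and activity induce were higher at 24 months in part. Of 19 measured VEGF-induced and tip cell genes, 3 passed as higher and 0 as lower, with a median log2 ratio of 0.15. Of all genes, 2.63% passed as higher. Hbegf, a membrane-bound ligand of the EGF receptor, had 1064 and 1803 UMIs, 868 and 1720 CPM, a ratio of 1.98 (1.84 to 2.14). At 1000 UMIs it was found in 38.7% (34.5 to 43.1) and 56.9% (51.9 to 61.8) of members, and no barcode held more than 38 of its UMIs. The orphan nuclear receptors Nr4a1 and Nr4a2 were at 708 and 1211 CPM and at 715 and 1108 CPM, ratios of 1.71 (1.57 to 1.87) and 1.55 (1.42 to 1.69). The tip cell proteoglycan Esm1 was at 608 and 884 CPM, and its ratio of 1.46 (1.32 to 1.60) lay just under the size rule, as did that of the protease Adamts1, 1.42 (1.33 to 1.52). Dll4, a Notch ligand of tip cells, had a ratio of 1.00, and Rgcc 0.830.

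Hbegf was compared between the cell classes. In endothelial barcodes without a Plvap UMI it had 79 and 45 UMIs, a ratio of 1.31 (0.887 to 1.91), and the ratio of both ratios was 1.51 (1.04 to 2.20), an interval for counting error only. Both values include the difference in make-up of that group between the libraries. In fibroblast barcodes Hbegf was at 122 and 173 CPM, a ratio of 1.42 (1.27 to 1.58). In epithelial barcodes, at 2.45 and 4.78 CPM, its ratio of 1.95 (1.67 to 2.29) was close to that in members, with a ratio of both ratios of 1.01 (0.855 to 1.20).

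Immediate early genes and heat shock genes, which digestion of tissue is known to induce, also differed between the libraries. Against 2.63% of all genes that passed as higher, 5 of 27 measured did and 0 passed as lower, with a median log2 ratio of 0.22. They were Fos, an AP-1 subunit, at 1290 and 2040 CPM (ratio 1.58, 1.48 to 1.69), Nr4a1, the matricellular Cyr61 (1.88), and the chaperones Hspa1a (1.94, 1.67 to 2.25) and Hspa1b (1.52). Junb had a ratio of 1.05, Egr1 1.18, and the mitochondrial chaperones Hspd1 and Hspe1 0.733 and 0.716. Nr4a1 belongs to both lists, and whether the Hbegf and Nr4a differences arose before or after digestion cannot be told apart. In fibroblast barcodes Fos had a ratio of 1.07 (1.04 to 1.10), in endothelial barcodes without a Plvap UMI 0.916 (0.783 to 1.07) and in epithelial barcodes 2.16. The group without Plvap differed in make-up between the libraries. In epithelial barcodes 14 of 28 genes of this list passed as higher, with a median of 0.47, where 4.91% of all genes passed as higher.

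**Figure D3:**
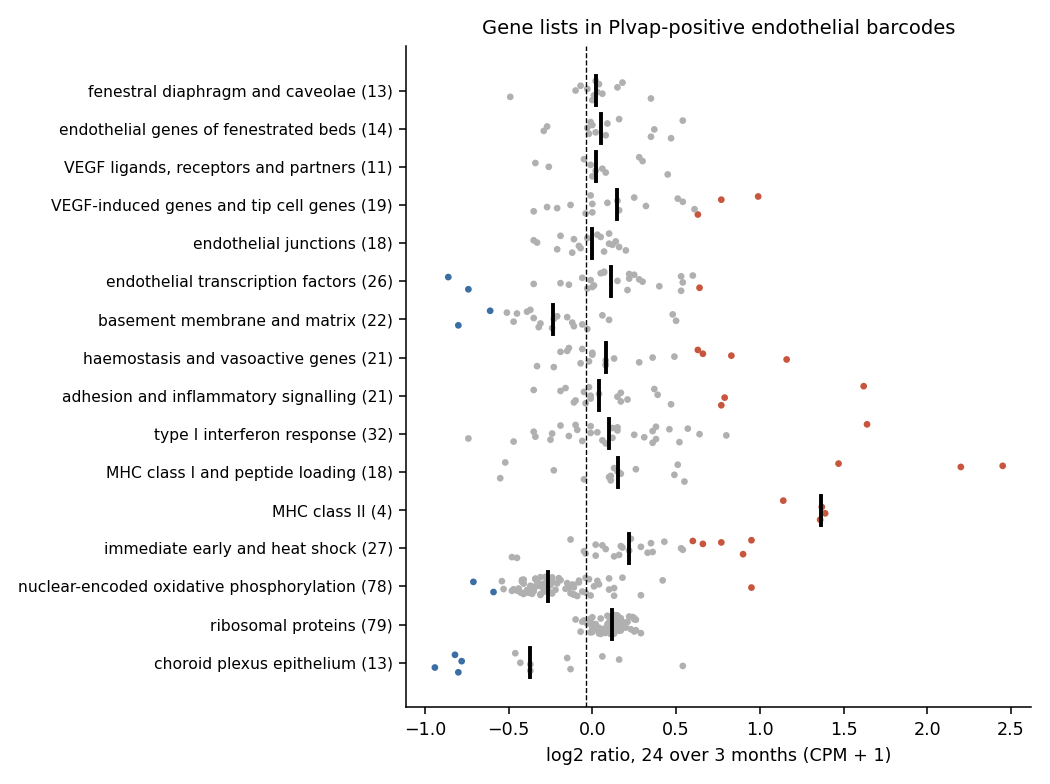
Log2 ratio of 24 over 3 months (x axis, CPM + 1 scale) of each measured gene of 16 lists in Plvap-positive endothelial barcodes, with the number of genes in brackets; each point is a gene, red if it passed as higher, blue if lower and grey if neither, black bars are list medians and the dashed line is the median of all genes, -0.04. The 4 class II genes lie apart from 0 as a group, while the fenestral, fenestrated bed and VEGF receptor lists lie around 0.

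Transcription factors of endothelial identity were mostly level, with a few exceptions. Of 26 measured, 1 passed as higher and 2 as lower, and the median log2 ratio was 0.11. Meox1, a homeobox factor, had 269 and 126 UMIs, 219 and 120 CPM, a ratio of 0.548 (0.440 to 0.679). It was found in 18.2% (14.9 to 21.8) and 10.1% (7.38 to 13.5) of members at 1000 UMIs, and in 0.376% of fibroblast barcodes at 3 months. Sox18, an SRY-related factor of vessel development, was at 246 and 147 CPM, a ratio of 0.598 (0.490 to 0.729), while its relatives Sox17 and Sox7 had ratios of 1.45 and 1.11. Klf4, a flow-responsive factor, was at 870 and 1361 CPM, a ratio of 1.56 (1.44 to 1.69), and Klf2 at 469 and 682 CPM, 1.45 (1.30 to 1.63). In fibroblast barcodes Klf4 had a ratio of 0.914 (0.891 to 0.938). The pan-endothelial factors Erg and Fli1 had ratios of 1.17 and 0.992.

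Of 22 measured basement membrane and matrix genes, 2 passed as lower and 0 as higher, and the median log2 ratio was -0.23 against -0.04 for all genes. Col15a1, a basement membrane collagen, had 263 and 129 UMIs, 215 and 123 CPM, a ratio of 0.574 (0.461 to 0.711), and the laminin chain Lamb1 had a ratio of 0.650 (0.430 to 0.969). The collagen IV chains Col4a1 and Col4a2 had ratios of 0.853 (0.791 to 0.920) and 0.783 (0.710 to 0.862), and Sparc, which binds collagen, 0.733 (0.677 to 0.793), none of them past the size rule. In fibroblast barcodes 5 of 25 genes of this list passed as lower, with a median of -0.41, where 4.94% of all genes passed as lower. There Col15a1 had a ratio of 0.725 and Sparc 0.502. Thbs1, an inhibitor of angiogenesis, had 151 and 60 UMIs in members, a ratio of 0.465 (0.339 to 0.631), and 1.02 (0.964 to 1.09) in fibroblast barcodes.

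Several genes of haemostasis and vessel tone passed as higher at low levels. Of 21 measured, 4 passed as higher and 0 as lower, where 2.63% of all genes passed as higher and 3.81% as lower. The list's median log2 ratio was 0.08 and the ratio of its sum 1.00 (0.965 to 1.04). Among the 4 that passed, Plau, the urokinase plasminogen activator, was at 23.7 and 42.9 CPM, a ratio of 1.81 (1.11 to 3.00). The ecto-nucleotidase Nt5e had a ratio of 1.59 and the vasoconstrictor endothelin Edn1 1.57. The abundant receptor genes Ednrb and Ramp3 had ratios of 0.997 (0.906 to 1.10) and 0.999 (0.899 to 1.11), and thrombomodulin, Thbd, 0.953.

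Genes of leukocyte adhesion did not differ past the rule. Icam1 was at 880 and 773 CPM, a ratio of 0.878 (0.801 to 0.963), Vcam1 at 108 and 100.2 CPM, and the selectins Sele and Selp had ratios of 0.970 and 0.923. In their list of 21 measured genes, 3 passed as higher, against 2.63% of all genes, and 0 as lower, with a median of 0.04. Those that passed were the interleukin 1 receptor Il1r1 (1.73), the lipopolysaccharide co-receptor Cd14 (3.20, from 15.5 to 49.6 CPM) and the chemokine Cxcl10 (1.75). Without its highest barcode in each library, the Cxcl10 ratio was 1.26 (0.718 to 2.21).

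Markers of vessel segment were mixed. Of 11 measured arterial genes, Alpl, an alkaline phosphatase (102 and 190 CPM, ratio 1.86), and Edn1 passed as higher and the matrix protein Fbln2 (0.597) as lower. Of 14 venous genes, Il1r1 passed as higher. At 1000 UMIs, 344 of 511 members at 3 months and 270 of 404 at 24 months held both arterial and venous list UMIs, so the lists did not separate members. Of 18 barrier genes, Spock2, a matrix proteoglycan, passed as higher, at 16.3 and 49.6 CPM. Of 8 Wnt pathway genes Tcf7l1, a transcription factor of that pathway, passed as lower, a ratio of 0.652 (0.510 to 0.830), with a list median of -0.25. Of 21 genes of the TGF-beta and BMP pathway, Ltbp1, which stores latent TGF-beta, passed as higher (1.83) and the inhibitory Smad6 as lower (0.656). No gene of the Notch list (10 measured), the Tie, angiopoietin and ephrin list (10 measured) or the insulin-like growth factor list (7 measured) passed.

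Few genes of energy metabolism passed. Of 78 nuclear-encoded genes of oxidative phosphorylation, 2 passed as lower (Ndufs4 of complex I, 0.606, and Atp5f1 of the ATP synthase, 0.664) and 1 as higher (Cox8b, 1.96), with a median log2 ratio of -0.27 against -0.04 for all genes. The list summed to 16398 and 14004 CPM. Transcripts of the choroid plexus epithelium list were lower in members too, with a ratio of 0.738, and their part in this sum was not tested. Fibroblast and epithelial barcodes had medians of -0.11 and -0.14. Mitochondrially encoded genes had a median of -0.15 and ribosomal protein genes 0.12, with 0 of 13 and 0 of 79 passing. Of 21 genes of hypoxia and glycolysis, Ldhb, a lactate dehydrogenase subunit, passed as lower (0.634), with a median of -0.07. Of 20 lysosomal genes, cathepsin A, Ctsa, passed as higher (1.97). The cell cycle inhibitor Cdkn1a was at 1891 and 2259 CPM, a ratio of 1.19. Of 21 genes of folding in the endoplasmic reticulum, the gene that passed was Crlf2 (1.70), a cytokine receptor subunit that does not belong to that pathway.

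Among the 12 highest and 12 lowest genes by the ranking rule, several fell in none of these lists. Neat1, a nuclear long non-coding RNA, had 278 and 568 UMIs, 227 and 542 CPM, a ratio of 2.39 (2.07 to 2.77), with shares of 19.2% and 33.2% of members at 1000 UMIs. Its ratio in fibroblast barcodes was 1.65 (1.59 to 1.71). Hilpda, which inhibits lipolysis at lipid droplets, had 143 and 272 UMIs, a ratio of 2.22 (1.81 to 2.74). Osgin1, an oxidative stress response gene, had a ratio of 2.18 (1.57 to 3.05) and the synuclein Sncg 2.00 (1.49 to 2.71). On the lower side were the kinase Map3k11 (0.527), the ubiquitin ligase Neurl3 (0.549), the collagen prolyl hydroxylase P4ha1 (0.562), the golgin Gcc2 (0.585), the PI3K regulatory subunit Pik3r1 (0.589) and the clock repressor Nr1d1. Nr1d1 had 276 and 139 UMIs, a ratio of 0.589 (0.477 to 0.725), and 0.763 (0.669 to 0.870) in fibroblast barcodes.

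The ranking held 4 genes with a measured limit. Aqp1 (0.519), Ptgds (0.578) and Chchd10 (0.583) are abundant in epithelial barcodes, at 141, 1948 and 1739 CPM at 3 months. The choroid plexus epithelium list in members, transcripts that free RNA of the suspension can bring, summed to 28947 and 21360 CPM, a ratio of 0.738 (0.726 to 0.750), and 4 of its 13 measured genes passed as lower. The same list was at 21899 and 20042 CPM in fibroblast barcodes. Apod, the highest ranked gene with 22 and 150 UMIs, a ratio of 7.97 (5.08 to 13.1), had 92 of its 150 UMIs at 24 months in 1 barcode. Without the highest barcode of each library its ratio was 3.39 (2.01 to 5.95), and Apod is abundant in fibroblasts. The part of free RNA in the lower ratios was not tested.

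Transcripts of other cell types in members went both ways between the libraries. The 8 mural cell genes of the rule summed to 594 and 373 CPM, and 23.6% and 15.1% of members held 3 or more of their UMIs. Of these, Rgs5, a regulator of G protein signalling, passed as lower with a ratio of 0.643 (0.563 to 0.733). With members limited to under 3 mural UMIs, 122 genes passed as higher and 184 as lower. Neural markers summed to 24.5 and 9.54 CPM. The 12 fibroblast markers summed to 97.1 and 229 CPM, against 9804 and 17450 CPM in fibroblast barcodes, with 1 marker at 0 in each library (Igfbp6, then Col3a1). The 8 smooth muscle markers summed to 71.8 and 55.3 CPM, with Acta2 at 0 at 3 months. Macrophage markers summed to 907 and 1070 CPM, of which Apoe, also abundant in epithelial barcodes, gave 814 and 898, and 25% of members held 3 or more of them at both ages. T and NK cell markers were at 5.71 and 59.1 CPM, B cell markers at 4.08 and 63.9, and those of neutrophils and mast cells at 6.53 and 98.3. At 3 months 0 members held 3 or more UMIs of any of these 3 lists, and at 24 months 1, 3 and 1 members did. Cd8a was at 0 in both libraries, as were the mast cell genes Cpa3, Tpsb2 and Mcpt4. Without the 22 and 23 members that held 3 or more UMIs of the fibroblast, smooth muscle, T and NK cell, B cell or neutrophil and mast cell list, or of the macrophage list without Apoe, 130 of 5122 genes passed as higher (2.54%) and 196 as lower (3.83%). The H2-Q6 and H2-Q7 sum then had a ratio of 5.05 (4.14 to 6.19), Hbegf 2.10 (1.94 to 2.27) and Nr4a1 1.75 (1.60 to 1.91).

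Endothelial barcodes without a Plvap UMI, 56 and 45 in number, served as the nearest comparison. They differed in depth, with medians of 3695.5 and 1447 UMIs, so both sides were thinned to 1000 UMIs, which left 511 and 52 barcodes at 3 months and 404 and 36 at 24 months. A gene was described as different when it passed the size rule in the same direction in both libraries. Of 5764 genes, 91 were higher in members (1.58%) and 92 lower (1.6%). Since the rule chose the barcodes by their transcripts, these values describe the groups and support nothing further.

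The 10 genes highest in members, rule genes left out, were ranked by the smaller of both libraries' log2 ratios. They were Enpp6, Cyp1a1, Yrdc, Ednrb, Ramp3, Inhbb, Rapgef4, Exoc3l2, Lmcd1 and Cyp26b1, some of which are described here. The endothelin receptor Ednrb was at 744 CPM in members and 38.5 CPM without Plvap at 3 months, and at 792 and 55.6 CPM at 24 months. Ramp3, which modifies the adrenomedullin receptor, was at 626 and 57.7 CPM, and then at 683 and 55.6 CPM. The activin subunit Inhbb was at 331 and 19.2 CPM, and then at 448 and 55.6 CPM, and the retinoic acid hydroxylase Cyp26b1 at 294 and 57.7 CPM, and then at 438 and 83.3 CPM. Enpp6, a choline phosphodiesterase, and Cyp1a1, a target of the aryl hydrocarbon receptor, had no UMI without Plvap in either library, where a count of 0 allows up to 57.7 and 83.3 CPM. In members Enpp6 was at 162 and 235 CPM and Cyp1a1 at 225 and 136 CPM. Of 15 measured genes of fenestrated beds 14 were higher, a list that includes Plvap and other rule genes.

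Lower in members were arterial and fibroblast genes. The arterial list summed to 2748 CPM in members and 15231 CPM without Plvap at 3 months, and to 3020 and 12778 CPM at 24 months, with 5 of 14 genes lower. Cldn5 was at 5.87 and 173 CPM, and then at 17.3 and 472 CPM. All 6 measured fibroblast markers were lower in members, summing to 112 against 4827 CPM and 245 against 6278 CPM, among them Dcn and Lum. In the group without Plvap, 28 of 56 and 8 of 45 barcodes held 3 or more UMIs of 5 fibroblast genes, so it was not purely endothelial.

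Without such barcodes on either side, 29 of 5568 genes were higher in members (0.521%) and 31 lower (0.557%), over 24 and 28 barcodes without Plvap. Of the fenestrated bed list, 10 of 14 genes were then higher (20925 against 7583 CPM, and 21768 against 8821 CPM). These include Plvap, which the rule set to 0 on the side without it, and other rule genes. Ednrb, Ramp3 and Inhbb were again higher, as was Col13a1, a transmembrane collagen. Enpp6, Cyp1a1 and Cyp26b1 no longer passed in both libraries, with fewer barcodes without Plvap to compare. Of the arterial list 4 of 13 were lower (2819 against 8750 CPM, and 2923 against 9036 CPM), and of the barrier list 6 of 21. Cldn5, the von Willebrand factor gene Vwf, Slc2a1, the organic anion transporter Slco1a4, Fbln2, Stmn2 and Mgp were lower in members. Slc2a1 was at 43.2 against 250.0 CPM at 3 months and at 64.8 against 607 CPM at 24 months. Some arterial and barrier genes that the rule did not use thus differed after the fibroblast-bearing barcodes were set aside, on few UMIs. Without Plvap, Slc2a1 had 6 and 17 UMIs, Vwf 4 and 15, and Slco1a4 4 and 5. At 3 months macrophage markers were at 929 CPM in members and 3375 CPM without Plvap. With the fibroblast-bearing barcodes kept, 3 of 21 barrier genes were lower. Their list then summed to 7260 against 5192 CPM at 3 months, higher in members, and to 7485 against 10278 CPM at 24 months. The difference in the fenestrated bed list was in part set by the rule.

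**Figure D4:**
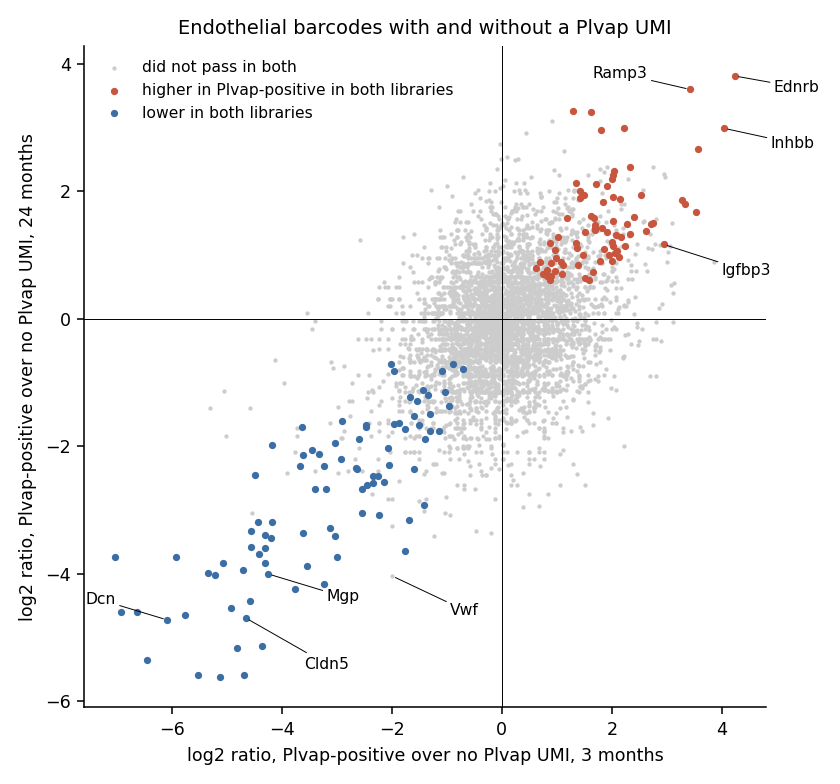
Log2 ratio of Plvap-positive endothelial barcodes over those without a Plvap UMI at 3 months (x axis) and at 24 months (y axis), each barcode thinned to 1000 UMIs, on the CPM + 1 scale; each point is 1 of 4285 genes with a UMI in all 4 sums, rule genes left out, red if higher in both libraries and blue if lower in both. Ednrb, Ramp3 and Inhbb lie at the upper right, and Cldn5, Mgp and the fibroblast gene Dcn at the lower left; Enpp6 and Cyp1a1, with no UMI without Plvap, are not plotted.

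The members were also described by their Plvap count, which the rule used, as it did Flt1 and Kdr, so these values support nothing further. Members were split by their Plvap UMIs among 1000 into 0, 1, 2 and 3 or more, which held 39, 120, 96 and 256 barcodes at 3 months and 42, 80, 90 and 192 at 24 months; such ranges of a count are not cell types. Flt1 was at 6051 CPM (5304 to 6875) at 0, 5942 CPM at 1 and 6832 CPM (6516 to 7160) at 3 or more at 3 months, and at 5857 CPM (5148 to 6637) at 0 and 7698 CPM (7310 to 8101) at 3 or more at 24 months. Kdr was at 1974 and 2605 CPM at these ends at 3 months and at 1190 and 2813 CPM at 24 months. Igfbp3 was at 2256 (1810 to 2780) and 2770 CPM (2569 to 2981) at 3 months, and at 2476 (2023 to 3000) and 3203 CPM (2955 to 3467) at 24 months. At 3 months the intervals of Flt1, Kdr and Igfbp3 overlapped between these ends, and at 24 months those of Igfbp3 did. The arterial list went the other way, from 3308 to 2465 CPM and from 4071 to 2729 CPM. The venous list went from 2333 to 2090 CPM at 3 months and from 3500 to 1885 CPM at 24 months. Cav1 showed no such course, at 436, 233, 219 and 215 CPM and then at 143, 250.0, 222 and 229 CPM.

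**Figure D5:**
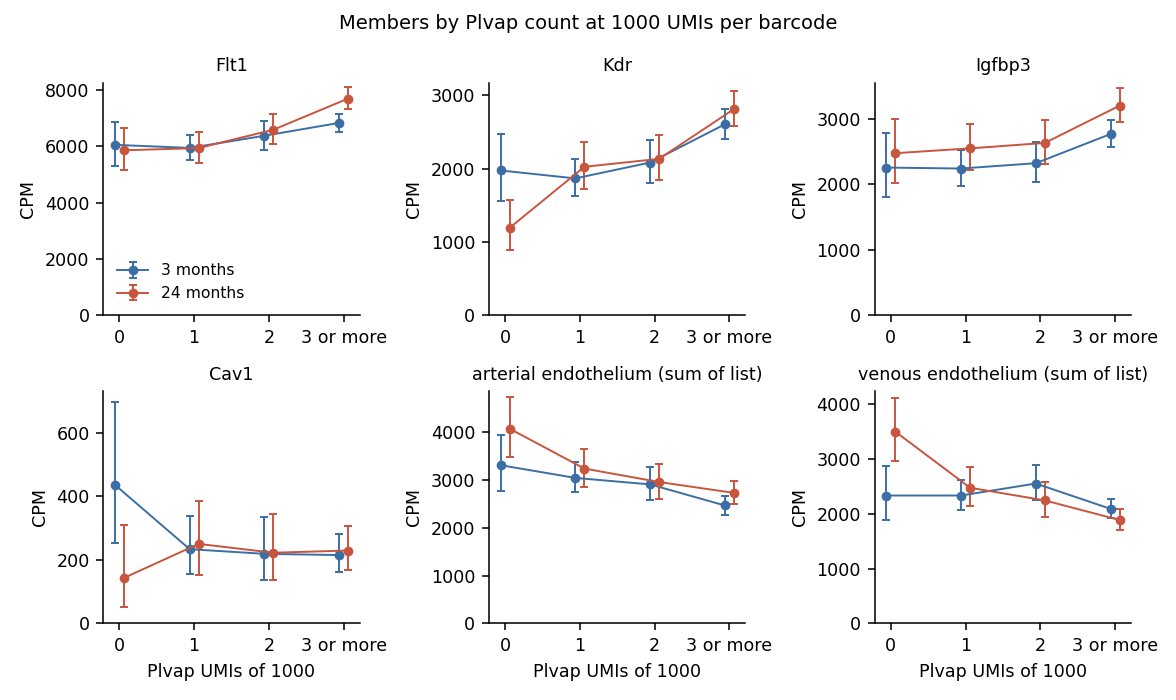
Summed level (y axis, CPM, from 0) of Flt1, Kdr, Igfbp3, Cav1 and the arterial and venous lists in members grouped by Plvap UMIs among 1000 (x axis), at 3 months (blue) and 24 months (red); points are sums over barcodes and lines exact 95% Poisson intervals. Flt1, Kdr and Igfbp3 are highest in members with 3 or more Plvap UMIs at both ages, and the arterial list is lowest there, with intervals that overlap in part.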

How the data were processed

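Single-cell RNA of 2 choroid plexus libraries (3 and 24 months, 1 each) was used as the UMI count matrices that the authors deposited, whole numbers without normalization. Reads were processed with Cell Ranger 4.0.0 against mm10, per the submitters' processing notes; barcode calling and annotation are not given in these sources. Coordinates are from GENCODE vM21, which held 98.6% of 20375 symbols.

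Members, gene lists and tests were chosen with earlier results of these data known. UMIs were summed over the barcodes of each class per library and expressed as CPM; cells are not replicates. CPM ratios have exact conditional binomial, shares exact Clopper-Pearson and sums exact Poisson 95% intervals. Log2 ratios use a pseudocount of 1 CPM, which understates differences of low genes. Genes needed 50 UMIs over both libraries, or 20 thinned UMIs in the comparison with endothelial barcodes without Plvap. Fibroblast barcodes had 8 or more UMIs of Dcn, Lum, Col1a1, Col1a2 and Pdgfra, and epithelial barcodes at least 10% Ttr.

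Named genes were the 12 highest and 12 lowest ratios among passing genes with 100 CPM or more and the same direction under each scaling, without predicted, haemoglobin, mitochondrial and ribosomal genes. To these were added up to 4 per list at 20 CPM or more, a fixed set of endothelial genes, and the 10 highest and 10 lowest in the comparison by Plvap. Other genes named with a ratio inside a list, the clock genes and the Y box and NF-kB motifs were chosen after values were seen. Values of a few genes of the fixed lists are not reported here. The patterns defining the oxidative phosphorylation and ribosomal lists were corrected after the symbols they matched were seen.

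Doublets were not removed from the main values. The automatic threshold of Scrublet (scanpy 1.11.5) marked 14 and 4 barcodes and did not work, so the highest scores, 670 and 870 barcodes, were left out as an alternative. Other alternatives were scalings, filters, thinning to 2000 UMIs and leaving out barcodes with markers of other cells. Calculations used Python 3.11.15, numpy 2.4.6, scipy 1.17.1 and edgeR 4.0.16 for TMM factors only, and were tested on simulated data.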

Additional observations from a re-analysis of the deposited data

How the results depend on the processing

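Against 140 genes higher and 203 lower at 24 months, thinning to 1000 UMIs gave 71 and 110, no UMI minimum 311 and 352, and a minimum of 200 UMIs 23 and 38. A looser limit on the ratio gave 274 and 374, and a limit of 2 gave 44 and 27. A Ttr limit of 2% left 119 lower. The median log2 ratio of MHC class II was 0.72 without high doublet scores. Against a member share of 90.2% of endothelial barcodes at both ages, a Ttr limit of 2% gave 82.5% at 3 months, a minimum of 1000 genes 94.7% at 24 months, a Plvap minimum of 3 UMIs 74.7% and 73.3%, an endothelial minimum of 16 UMIs 97.9% and 96.1%, and thinning to 1000 UMIs 83.8% and 82.3%. With other denominators the share was 5.89% and 4.13% of kept barcodes, and 18.9% and 13.5% of those under the Ttr limit. Against 91 genes higher and 92 lower than without Plvap, 2000 UMIs gave 191 and 194, all UMIs 291 and 401, and leaving out fibroblast-bearing barcodes 29 and 31.

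Over 21 settings, the 59 passing genes that are named gave 1172 values, of which 1142 lay inside the counting interval of the reported ratio, 26 lay outside it in the same direction and 4 reversed. Settings that change only the UMI minimum, the ratio limit or the genes kept leave each ratio as it was. The scalings shifted log2 ratios by at most 0.04. Part of the 1142 was thus fixed in advance and is no measure of stability. The log2 ratio of Il1b was -0.31 as a mean of barcodes and -1.51 without the highest barcode, that of S100a9 was -1.40 without the highest barcode, and that of Lyz2 was -0.36 without high doublet scores; the cause was not tested. Of all 343 passing genes, 20 no longer passed without the highest barcode of each library, 13 higher and 7 lower. Leaving out barcodes with markers of other cells, or the highest barcode, was chosen after seeing the data. No paired analysis was possible because there is 1 library per age. The depth of members limits genes under 50 UMIs, and with 1 library per age no spread between animals is known.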

Other observations

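Nr1d1 led to a look at 15 genes of the circadian clock, chosen after its values were seen. In members 12 were measured, of which 0 passed as higher and 3 as lower: Nr1d1 (ratio 0.589), the output factor Dbp (0.601, 0.462 to 0.777) and its relative Tef (0.657, 0.455 to 0.939), with a list median of -0.30. Nr1d1 prompted the list, so its own call adds nothing. Of all genes in members, 2.63% passed as higher and 3.81% as lower. In fibroblast barcodes 13 were measured, the activator Arntl passed as higher (2.30, 1.40 to 3.90) and Per2, Per3, Dbp and Hlf as lower, with a median of -0.39. Of all genes there, 3.97% passed as higher and 4.94% as lower. In epithelial barcodes 0 of 15 passed, with a median of -0.16, where 673 of 13705 genes passed as higher and 398 as lower. The hour at which tissue was collected was not given in the sources.

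Some ratios rested on single barcodes. All 60 S100a9 UMIs in members at 24 months lay in 1 barcode. The interleukin Il1b had 35 and 61 UMIs, 53 of the latter in 1 barcode, and its ratio went from 2.04 to 0.323 without the highest barcode of each library. The lysozyme gene Lyz2 went from 2.00 to 1.22 in the same way.

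Class II transcripts were also examined by their number per member. Members with 5 or more UMIs of the 4 genes numbered 10 at 3 months and 18 at 24 months, and 5 in each library also held 3 or more UMIs of an immune, fibroblast or smooth muscle list, Apoe not counted. For H2-Q6 with H2-Q7, members with 5 or more UMIs numbered 0 and 17, of which 0 and 2 held such markers.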
